A study of Mus musculus with 5 samples.

Results

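The M-current and the hyperpolarization-activated (HCN) cation channels were followed through *Kcnq3*, *Kcnq5*, *Hcn2*, *Hcn3*, *Hcn4* and *Pex5l*, which are 6 of the 19938 genes with a named probe set. They were taken by symbol, and each had exactly 1 probe set. Of the 6, 5 were at or above the median of an array somewhere and passed the filter on dim genes. The arrays came from mice of the strain ICR at postnatal day 24, 3 days after a retrograde tracer (Green RetroBeads) had been injected, and each held RNA of about 1000 neurons cut one by one from the primary somatosensory cortex (S1). The groups were association neurons, which project to the primary motor cortex of the same hemisphere, in layer 6b (L6b), L5 and L2/3, and callosal neurons, which project to S1 of the other hemisphere, in L5 and L2/3. All groups shared a tdTomato plasmid (pCAGGS-tdTomato), which had been electroporated in utero into L2/3 neurons of wild-type mice and whose red axon terminals guided the injections. Cells were pooled, and the sources used here do not say from how many animals. Since there was 1 array per group, no value has a replicate error and no test was run, so the differences below describe these arrays. In pooled neurons, fewer cells that express a gene and less RNA per cell cannot be told apart.

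The M-current is a slow potassium current through tetramers of KCNQ subunits that opens below the firing threshold and holds back repetitive firing. Acetylcholine closes these channels through Gq-coupled muscarinic receptors, phospholipase C and the loss of the membrane lipid that keeps them open. HCN channels carry the inward current that is switched on by hyperpolarization, are eased open by cyclic AMP and, in the cortex, are concentrated in the distal apical dendrites of L5 pyramidal neurons. *Pex5l* encodes TRIP8b, an auxiliary subunit that binds the HCN channels and sets their place in the dendrite and their number at the surface.

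The 2 KCNQ genes among the 6 were highest in association L2/3, and *Hcn2* and *Pex5l* were highest in association L5. *Hcn3* and *Hcn4* spanned less than 0.30 log2 over the 5 arrays. *Kcnq5*, *Kcnq3* and *Pex5l* were lowest in association L6b. Genes at or above the median in 1 array or more are called kept genes here. Of these 12632 genes, 27.4% were highest in association L2/3, 16.8% in association L5 and 21.3% in association L6b, and 30.5% were lowest in association L6b. Signals are given as log2 signal minus the median of the array, so that 0 is the array median and 1 is 2-fold. They are compared between arrays for 1 gene, never between genes, since probe sets differ in how brightly they hybridize.

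**Figure D1:**
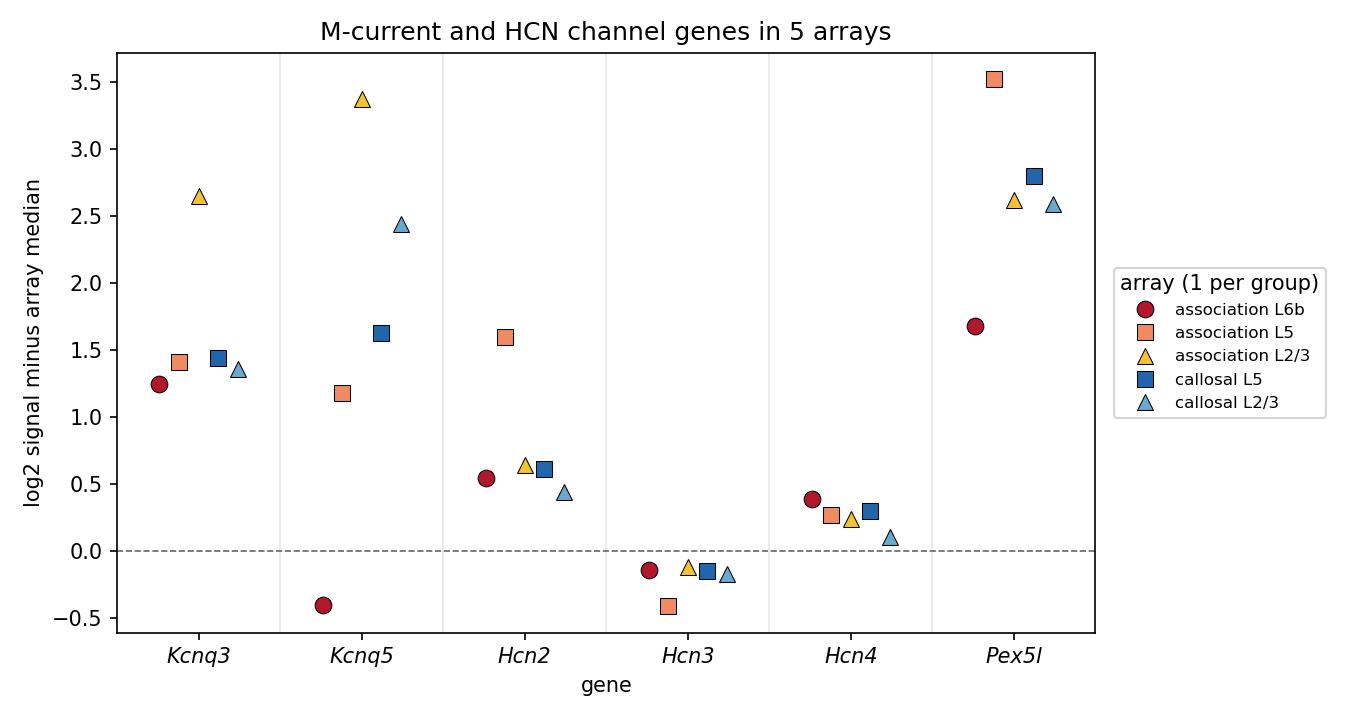
Log2 signal minus the array median (vertical axis) of the 6 genes (horizontal axis), 1 point per array and 1 array per group, with the dashed line at the array median. *Kcnq3* and *Kcnq5* are highest in association L2/3 (2.65 and 3.37), *Hcn2* and *Pex5l* in association L5 (1.60 and 3.52), and *Kcnq5* lies below the median in association L6b alone (-0.40).

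*Kcnq5*, which encodes a KCNQ subunit of cortical and hippocampal neurons, varied most. The gene lies at chr1:21398399-21962650 in build GRCm38.p6 and *Kcnq3* at chr15:65986374-66286636. The *Kcnq5* signal was -0.40 in L6b, 1.18 in L5 and 3.37 in L2/3 of association neurons, against 1.63 in L5 and 2.44 in L2/3 of callosal neurons. Both L2/3 arrays thus stood above both L5 arrays, and association L6b stood below all others. The span of 3.77 log2 was reached or passed by 1.14% of kept genes, whose median span was 0.53. In association neurons the signal was 13.6-fold lower in L6b than in L2/3 (a difference of -3.77) and 2.99-fold lower in L6b than in L5 (-1.58). A fall of this size or more occurred in 0.285% of kept genes for the first of these comparisons and in 3.31% for the second, and both rest on the same L6b array. L6b enrichment, the L6b signal minus the mean of the other 4 arrays, was -2.55, a 5.88-fold lower signal, and 0.61% of kept genes lay as low or lower. Since *Kcnq5* lay below the array median in L6b, where probe sets are dim, the size of these differences is uncertain.

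Between the layers, *Kcnq5* was lower in L5 than in L2/3 in both projections, by 2.19 log2 in association neurons (1.18 against 3.37) and by 0.81 in callosal neurons (1.63 against 2.44). The first difference is 4.56-fold and the second 1.75-fold, which is below the 2-fold rule of size used here. Between the projections, *Kcnq5* was 0.93 higher in association than in callosal neurons of L2/3, but 0.45 lower in association than in callosal neurons of L5. These 2 differences share no array, and both are under 2-fold. A yardstick for neighbouring arrays is the SD of the difference between 2 arrays over all kept genes, which was 0.61 to 0.76 log2 and mixes biology with noise. In the order of levels, association L2/3, callosal L2/3, callosal L5, association L5 and association L6b, only callosal L5 and association L5 were closer than this SD.

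*Kcnq3*, which encodes the subunit that pairs with other KCNQ proteins to form most neuronal M-channels, stood apart in 1 array. Its signal was 1.25 in L6b, 1.41 in L5 and 2.65 in L2/3 of association neurons, against 1.44 in L5 and 1.36 in L2/3 of callosal neurons. The other 4 arrays thus lay within 0.19 log2 of each other, and association L2/3 lay 1.21 above the next. The deposited values of association L5 and callosal L5 were identical, 7.18. *Kcnq3* was 2.45-fold higher in association than in callosal neurons of L2/3 (a difference of 1.29), and 3.06% of kept genes were higher by as much. In L5 the difference between association and callosal neurons was -0.03. *Kcnq3* was at least 2-fold higher in association L2/3 than in each other array, as were 2.34% of kept genes. Its L6b enrichment was -0.46, a value that 16.3% of kept genes reached or passed downwards.

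*Kcnq3* and *Kcnq5* were both highest in association L2/3 and lowest in association L6b (r = 0.74 over the 5 arrays, as a description), but their ratio was not constant. The log2 ratio of 2 probe sets within an array needs no scaling, and its change between arrays can be read although its level cannot. The ratio of *Kcnq5* to *Kcnq3* was -1.65 in L6b, -0.23 in L5 and 0.72 in L2/3 of association neurons, against 0.19 in L5 and 1.08 in L2/3 of callosal neurons. Association L6b minus association L5 was -1.42 on this scale, and association L6b minus association L2/3 was -2.37. It was higher in L2/3 than in L5 of both projections, and lower in association than in callosal neurons of both layers, with differences of -0.36 in L2/3 and -0.42 in L5. The highest *Kcnq5* signal and the highest ratio were therefore in different arrays, association L2/3 and callosal L2/3. The ratio of *Kcnq5* to *Pex5l* spanned 3.09 log2, with -2.08 in L6b, -2.34 in L5 and 0.75 in L2/3 of association neurons, against -1.17 in L5 and -0.15 in L2/3 of callosal neurons.

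**Figure D2:**
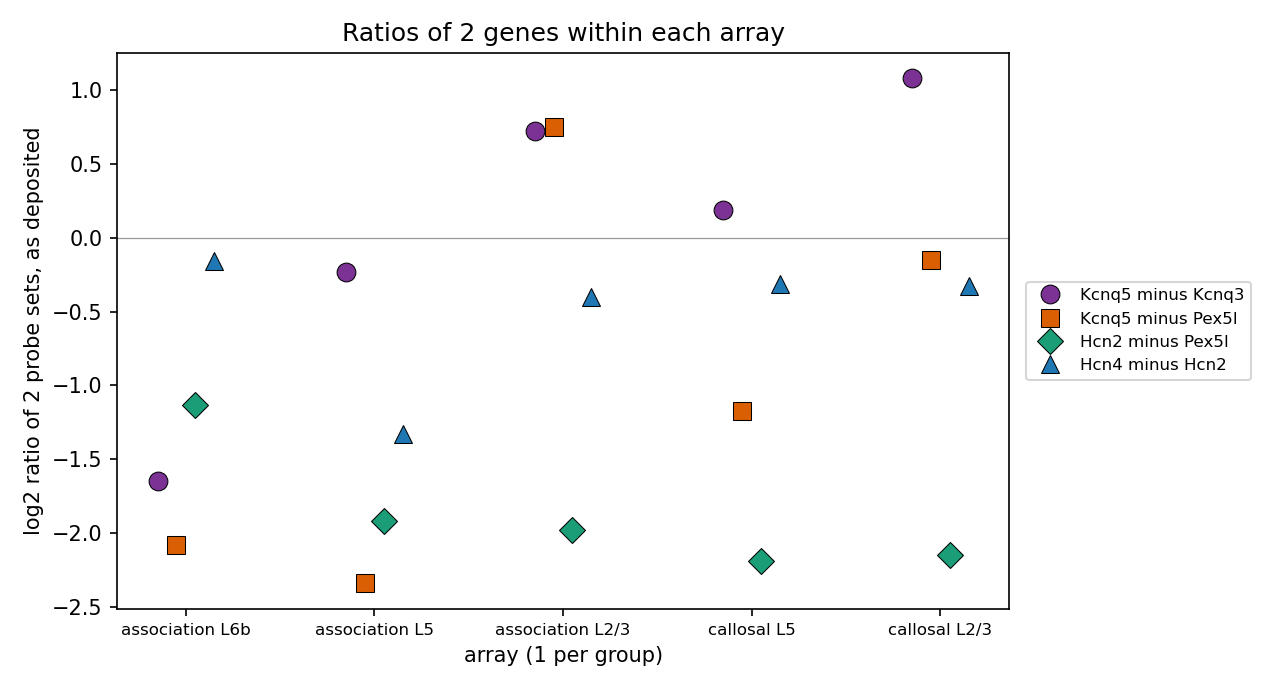
Log2 ratio of 2 probe sets as deposited (vertical axis) in each of the 5 arrays (horizontal axis), 1 point per ratio and array, with no scaling. The ratio of *Kcnq5* to *Kcnq3* runs from -1.65 in association L6b to 1.08 in callosal L2/3, and that of *Hcn4* to *Hcn2* is lowest in association L5 (-1.33).

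*Hcn2*, which encodes an HCN channel that opens at an intermediate speed and responds strongly to cyclic AMP, was highest in association L5. Its signal was 0.55 in L6b, 1.60 in L5 and 0.64 in L2/3 of association neurons, against 0.61 in L5 and 0.44 in L2/3 of callosal neurons. The other 4 arrays lay within 0.20 log2 of each other, and 3 of them had the same deposited value, 6.35. *Hcn2* was 2.07-fold lower in association L6b than in association L5 (a difference of -1.05), a call that was lost with the 75th percentile subtracted. Association L5 exceeded callosal L5 by 0.99 and association L2/3 by 0.96, which fall just short of 2-fold, and in the deposited values both differences were 1.02 and so passed the rule. A rise of this size or more was seen in 3.56% of kept genes for association against callosal L5 and in 3.71% for association L5 against L2/3. In callosal neurons, L5 and L2/3 differed by 0.17.

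In the same build *Hcn2* lies at chr10:79716634-79736108, *Pex5l* at chr3:32947926-33143302, *Hcn3* at chr3:89146775-89160284 and *Hcn4* at chr9:58822949-58863175. *Pex5l* was also highest in association L5 and, unlike *Hcn2*, lowest in association L6b. Its signal was 1.68 in L6b, 3.52 in L5 and 2.62 in L2/3 of association neurons, against 2.80 in L5 and 2.59 in L2/3 of callosal neurons. The 3 arrays other than association L6b and L5 lay within 0.21 log2 of each other, and the 2 L2/3 arrays had the same deposited value, 8.33. *Pex5l* was 3.58-fold lower in association L6b than in association L5 (a difference of -1.84), a fall that 2.38% of kept genes reached or passed. The difference between association L6b and association L2/3 was -0.94, and that between association L6b and the next lowest array was 0.91 in size. The L6b enrichment of -1.20, 2.30-fold, was reached or passed downwards by 4.56% of kept genes, and it was -0.99 when association L5 was left out of the mean. Association L5 exceeded callosal L5 by 0.72 and association L2/3 by 0.90, while callosal L5 exceeded callosal L2/3 by 0.21. The log2 ratio of *Hcn2* to *Pex5l* was -1.13 in association L6b and lay between -2.19 and -1.92 elsewhere. *Pex5l* was lowest in association L6b, while *Hcn2* at 0.55 there lay between callosal L2/3 (0.44) and association L2/3 (0.64).

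*Hcn4*, which encodes the slow HCN channel known from the pacemaker cells of the heart, and *Hcn3*, which encodes a family member with little response to cyclic AMP, differed little between the arrays. The signal of *Hcn4* was 0.39 in L6b, 0.27 in L5 and 0.24 in L2/3 of association neurons, against 0.30 in L5 and 0.11 in L2/3 of callosal neurons. *Hcn4* was the 1 gene of the 6 that was highest in association L6b among those that passed the filter, but only 0.09 log2 above the next array. The signal of *Hcn3* was -0.14 in L6b, -0.41 in L5 and -0.12 in L2/3 of association neurons, against -0.15 in L5 and -0.17 in L2/3 of callosal neurons. It never reached the array median, so it was left out of the counts, and whether it was detected at all cannot be read from the deposited signals. A span as large as that of *Hcn4*, 0.28, or more was seen in 71.5% of kept genes. The ratio of *Hcn4* to *Hcn2* was -1.33 in association L5 and lay between -0.40 and -0.16 elsewhere, which shows the higher *Hcn2* of that array without any scaling.

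The start-site windows of *Hcn2*, which varied, and of *Hcn4*, which hardly did, are shown side by side as the regulatory sequence at hand for 2 genes of 1 family. They are from RefSeq, build GRCm38.p6, run from 250 bases before to 50 bases after the annotated start, 5′ to 3′, and capitals mark the GC box GGGCGG on either strand. *Hcn2* lies on the plus strand at chr10:79716384-79716683 and *Hcn4* on the plus strand at chr9:58822699-58822998.
Hcn2: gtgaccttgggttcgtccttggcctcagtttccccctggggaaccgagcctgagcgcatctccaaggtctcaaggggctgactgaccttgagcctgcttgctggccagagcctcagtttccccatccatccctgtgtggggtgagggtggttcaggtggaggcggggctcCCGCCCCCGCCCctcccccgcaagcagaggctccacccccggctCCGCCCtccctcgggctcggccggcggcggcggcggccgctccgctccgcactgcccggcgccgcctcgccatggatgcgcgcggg
Hcn4: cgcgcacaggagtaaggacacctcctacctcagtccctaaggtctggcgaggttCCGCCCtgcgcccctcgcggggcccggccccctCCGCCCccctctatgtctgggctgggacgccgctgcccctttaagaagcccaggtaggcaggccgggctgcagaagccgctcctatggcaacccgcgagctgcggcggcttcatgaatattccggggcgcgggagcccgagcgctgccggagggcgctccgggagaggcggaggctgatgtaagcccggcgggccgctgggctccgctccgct
The *Hcn2* window holds 3 GC boxes, of which 2 lie next to each other, and the *Hcn4* window holds 2. The 2 windows given for *Kcnq5* hold 0, and 35.6% of all 32817 windows of this length hold at least 1. The letters TATAAA occur in none of these 4 windows and in 13.6% of all windows on either strand. GC contents were 72.3% for *Hcn2*, 71.7% for *Hcn4*, and 46.0% and 62.7% for *Kcnq5*. The arrays read transcripts and not promoters, so the sequences are given as description.

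The 2-fold rule was next counted over the 5 kept genes, first for association L6b against the other association layers. Against association L5, 3 of the 5 kept genes of the group were lower in L6b (*Kcnq5*, *Hcn2* and *Pex5l*) and 0 were higher, while 7.16% of kept genes were lower and 3.5% higher. With the 75th percentile subtracted the count was 2, without *Hcn2*. The *Hcn2* call reflects the high association L5 array, since its L6b enrichment was -0.01 when that array was left out of the mean. *Kcnq3* at -0.16 and *Hcn4* at 0.12 did not pass. Against association L2/3, 2 of 5 were lower in L6b (*Kcnq3* and *Kcnq5*) and 0 were higher, while 10.6% of kept genes were lower and 2.83% higher. *Hcn2* at -0.09, *Hcn4* at 0.15 and *Pex5l* at -0.94 did not pass. The median difference of the 5 genes was -1.05 in the first comparison and -0.94 in the second, and that of all kept genes was -0.03 and -0.09. Relative to each of the other 4 arrays, *Kcnq5* alone was at least 2-fold lower in L6b, as were 2.82% of kept genes, and 0 of the 5 were at least 2-fold higher, as were 1.26%. The 5 genes had a median L6b enrichment of -0.46 and all kept genes one of -0.06, with 4 of 5 and 62.9% of kept genes below 0.

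Within a layer, association neurons were compared with callosal neurons. In L2/3, 1 of 5 was higher in association neurons (*Kcnq3*) and 0 were lower, while 5.07% of kept genes were higher and 3.48% lower. The median difference of the 5 genes was 0.20 there, and that of all kept genes was 0.03. In L5, 0 of 5 passed the rule in either direction, while 3.49% of kept genes were higher and 4.97% lower in association neurons. *Hcn2* at 0.99 and *Pex5l* at 0.72 were the largest differences of that comparison, and *Kcnq5* at -0.45 was the lowest. This count depends on the scaling, since *Hcn2* passed the rule as deposited, with the 75th percentile subtracted and under quantile normalization.

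Between L5 and L2/3, the projections gave different counts. In association neurons, 2 of 5 were lower in L5 (*Kcnq3* by 1.24 and *Kcnq5* by 2.19) and 0 were higher, while 7.36% of kept genes were lower and 3.48% higher. With the 75th percentile subtracted or under quantile normalization, *Hcn2* and *Pex5l* also passed the rule as higher, for a count of 4, and as deposited *Hcn2* did, for a count of 3. In callosal neurons, 0 of 5 passed the rule, while 4.52% of kept genes were lower and 4.08% higher in L5. *Kcnq5*, *Hcn2*, *Hcn4* and *Pex5l* had the same sign in both projections, although *Hcn4* differed by only 0.03 and 0.19, and *Kcnq3* had opposite signs. Every one of these comparisons reuses the same 5 arrays, so a single array that stands apart, such as association L2/3 for *Kcnq3*, enters several of them.

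**Figure D3:**
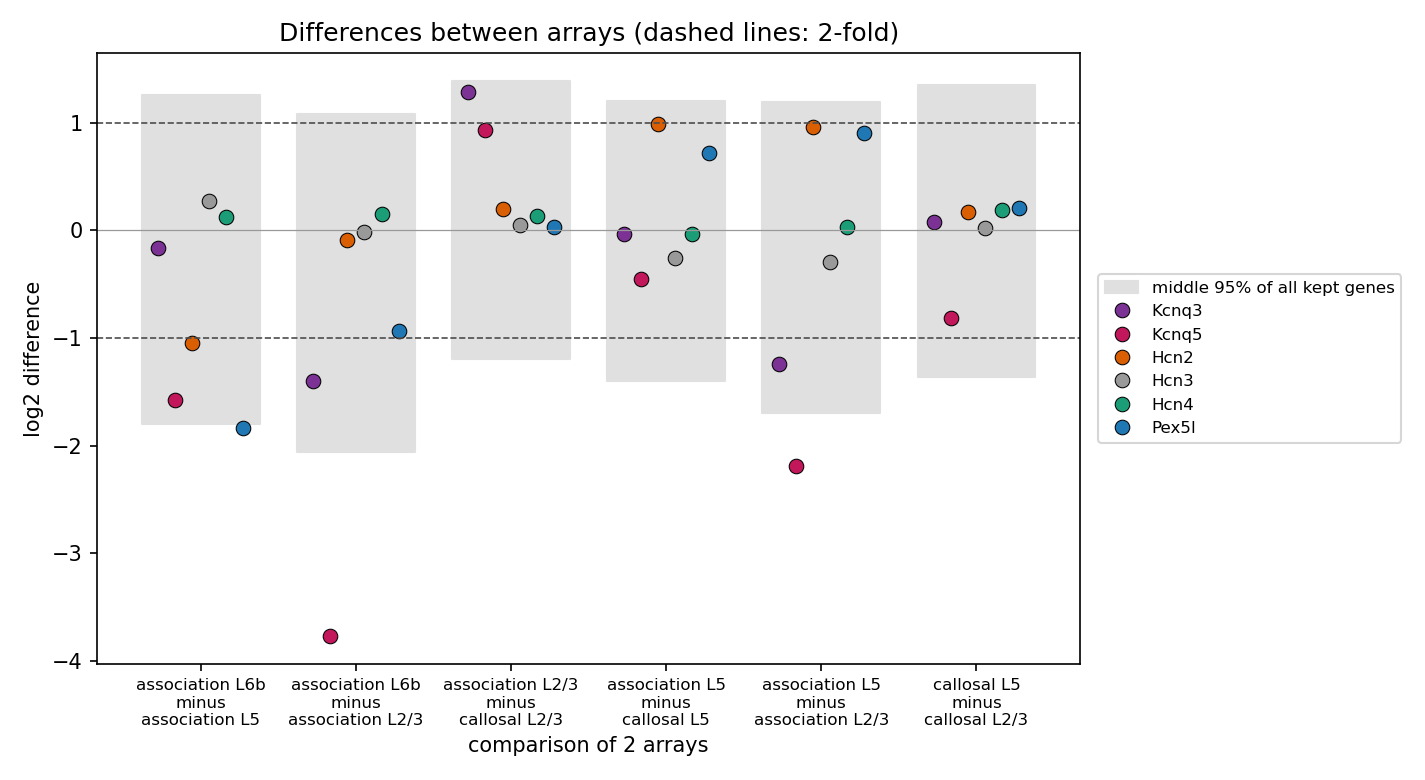
Log2 difference between 2 arrays (vertical axis) for 6 comparisons (horizontal axis), 1 point per gene, with dashed lines at 2-fold and grey boxes for the middle 95% of kept genes. *Kcnq5* leaves the box in association L6b minus association L2/3 (-3.77) and in association L5 minus association L2/3 (-2.19), and *Pex5l* lies just outside it in association L6b minus association L5 (-1.84).

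The genes that regulate the M-current were listed as a second group, and 17 of the 19 with a probe set were kept. Of these 17, 9 were lowest in association L6b and 1 was highest there, with a median L6b enrichment of -0.33. Of all kept genes, 30.5% were lowest and 21.3% highest there, with a median of -0.06. Against association L2/3, 6 of 17 were at least 2-fold lower in L6b and 0 were higher, with a median difference of -0.50. In association compared with callosal L2/3, 3 of 17 were at least 2-fold higher and 0 were lower, with a median difference of 0.37. These counts stand beside the shares of kept genes given above for the same comparisons, 10.6% and 5.07%. In the other comparisons 0 of 17 were higher. In association L6b 1 was lower than in association L5, against 7.16% of kept genes, and in association L5 2 were lower than in callosal L5, against 4.97%. In association L5 5 were lower than in association L2/3, against 7.36% of kept genes, and in callosal L5 1 was lower than in callosal L2/3, against 4.52%.

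Of the regulators, 3 were at least 2-fold higher in association L2/3 than in each other array, as *Kcnq3* and 2.34% of kept genes were. *Akap5*, which encodes the anchoring protein that holds protein kinase C at the M-channel, had 0.52 in L6b, 2.37 in L5 and 4.11 in L2/3 of association neurons, against 2.40 in L5 and 2.78 in L2/3 of callosal neurons. It was also at least 2-fold lower in association L6b than in each other array, with an L6b enrichment of -2.40. *Chrm3*, which encodes a Gq-coupled muscarinic receptor, had 3.70 in association L2/3 and lay between 0.72 and 1.24 elsewhere. *Plcb4*, which encodes a phospholipase C that acts downstream of Gq, had 3.89 in association L2/3, 1.54 in association L6b and 2.38 to 2.61 in the remaining arrays. *Chrm1*, the muscarinic receptor gene best known for closing M-channels, ranged from 1.98 to 2.12 and so hardly differed.

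Other regulators followed other orders. *Prkca*, which encodes a protein kinase C, had -0.40 in L6b, 0.21 in L5 and 1.79 in L2/3 of association neurons, against 1.63 in L5 and 2.73 in L2/3 of callosal neurons. It was thus lower in association than in callosal neurons of both layers, with differences of -1.42 in L5 and -0.94 in L2/3. *Gna11*, which encodes a Gq-class alpha subunit, was highest in callosal L5 at 3.35 and lay between 1.90 and 2.40 elsewhere. *Nedd4l*, which encodes a ubiquitin ligase of KCNQ channels, had 3.40 in association L2/3, 1.79 in association L5 and 2.40 to 2.54 in the remaining arrays. *Calm2* and *Calm3*, which encode the calmodulin that sits on the KCNQ tail, had L6b enrichments of -0.07 and -0.15.

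**Figure D4:**
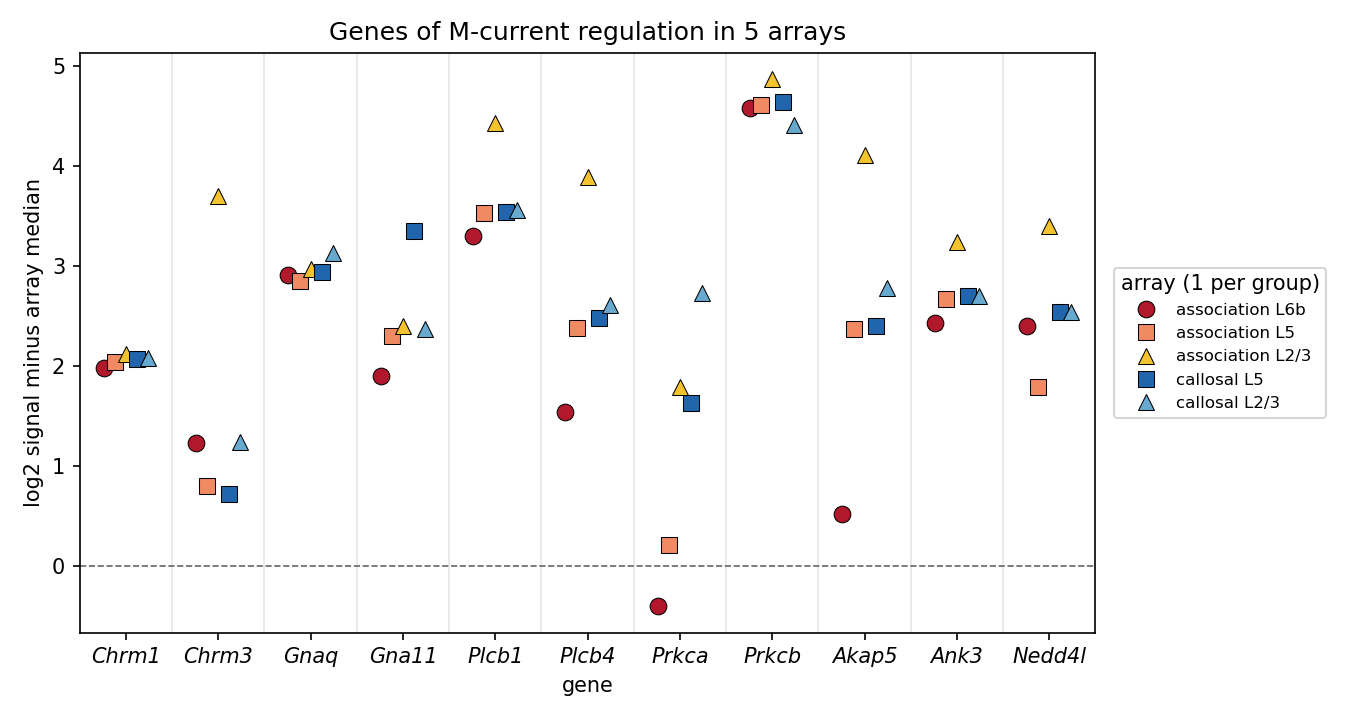
Log2 signal minus the array median (vertical axis) of 11 genes of M-current regulation (horizontal axis), from muscarinic receptors to kinases and anchors, 1 point per array. *Chrm3*, *Plcb4* and *Akap5* are highest in association L2/3 (3.70, 3.89 and 4.11), and *Chrm1* lies between 1.98 and 2.12 in every array.

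The remaining genes of the 2 channel families and of their subunits varied little. *Kcnq1*, which encodes the KCNQ channel of heart and epithelia, ranged from 0.31 to 0.56, with an L6b enrichment of -0.01. Of the 5 KCNE genes, which encode small subunits that associate with KCNQ channels, only *Kcne1* was kept, with -0.01 to 0.16, and it passed the 2-fold rule in 0 comparisons. Among partners of HCN channels, 7 of 8 were kept, with a median L6b enrichment of 0.04. After *Pex5l*, the largest L6b enrichments there were those of *Vapb*, which encodes an endoplasmic reticulum protein that binds HCN channels, at 0.43, and of *Flna*, which encodes filamin A, at 0.22.

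Genes whose signals moved most like those of the 4 genes with a span of at least 1 log2 were found by the root mean square difference of the centred log2 signals over the 5 arrays, among 11728 candidates. For *Kcnq5* these were *Arhgap10* (0.27), *Akap5* (0.28) and *Cacna2d1* (0.32), the last of which encodes a calcium channel auxiliary subunit. *Akap5* is also a listed M-current regulator, but that list was chosen with earlier results of these data known, so the overlap is no independent support. For *Pex5l* they were *Yipf6* (0.09), *Atxn7l3* (0.09) and *Ireb2* (0.10). For *Kcnq3* they were *Xrn1*, *Rgs6* and *Sfmbt1* (0.05 each), which were likewise highest in that array. For *Hcn2* they were *Tmem86b* (0.02), *S100g* (0.06) and *Asxl2* (0.06). Among the channel genes that were kept, the closest were *Hcn2* and *Pex5l* (0.39), and the farthest were *Kcnq5* and *Hcn2* (1.40).

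Marker genes of cell types were read in the same arrays. All 6 L6b markers were highest in association L6b, 5 of them by at least 2-fold, with *Cplx3* at 5.22 there and -0.37 to 0.39 elsewhere. The paper had picked *Kcnab1* from these same arrays for its L6b enrichment, and the known marker *Ctgf* (*Ccn2* here) was among its candidates. The places of these genes are therefore no independent check of the L6b array. The summed level of a marker list is the log2 of its summed linear signals relative to the array median. For 5 L2/3 markers it was 6.82 in association and 6.54 in callosal L2/3, and 3.32 to 4.58 in the other layers. For 5 L5 markers it was 6.40 in association and 6.37 in callosal L5, 6.27 in association L6b, and 4.83 and 4.17 in association and callosal L2/3. The L6b value rests on *Pcp4* (6.16 there), and 3 of the 5 (*Fezf2*, *Etv1* and *Rbp4*) were at least 2-fold lower in association L6b than in association L5. In the deposited table, 60.6% of all probe sets had the same value, to its 2 decimals, in at least 2 arrays, as did 5 of the 6 genes described here. The glutamatergic marker *Camk2a* was 2.41 in association L6b, the array where *Kcnq5* and *Pex5l* were lowest, and 4.41 to 5.75 elsewhere. *Slc17a7* was 3.98 there and 3.84 to 4.47 in the others, and *Tbr1* was 3.60 there and 4.12 to 4.36 in the others. *Neurod6* was 3.08 in association L6b, 1.29 in association L2/3 and 2.58 to 3.42 in the remaining arrays. Of 6 GABAergic markers, 4 were lowest in association L6b, and their summed level was 3.79 log2 there and 5.18 to 5.92 elsewhere, with *Pvalb* at -1.38 against 2.26 to 4.57. The summed level in association L2/3, where *Kcnq3* and *Kcnq5* were highest, was 5.90, and that in callosal L5 was 5.92. The summed level of 6 oligodendrocyte markers was 5.47 in association L6b and 5.35 in association L5, the array where *Hcn2* and *Pex5l* were highest, and 3.23 to 4.33 elsewhere. In association minus callosal L5, *Mag* was 3.32 and *Mobp* 1.51, while *Mog* was 0.28, *Mbp* -0.22, *Opalin* -0.43 and *Cnp* -0.67, with a median of 0.03. The summed level of 5 astrocyte markers was 3.35 in association L6b and 4.86 to 5.57 elsewhere, which rests on *Aldoc* (2.41 against 4.61 to 5.41), since the other 4 had L6b enrichments of -0.20 to -0.02. That of 4 microglia markers was 2.66 to 2.94 in all arrays. The part of these cell types in the values of the channel genes was not tested.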

How the data were processed

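RNA of retrogradely labeled S1 neurons was amplified and hybridized to 5 Affymetrix GeneChip Mouse Gene 1.0 ST arrays, 1 per group. The authors deposited 1 table of log2 signals for 35556 probe sets. The submitters' notes name Affymetrix Expression Console, with its version and probe summary not given in the sources used, and the paper names log transformation, global normalization and centering. The scale is inferred from the range of the deposited values, which run from 1.11 to 14.2 and are not centered per gene.

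A platform annotation gave 1 symbol for 21789 probe sets, and several for 1621, and 12146 are unnamed here. Only those with 1 symbol were used. The probe set with the highest mean stood for a gene, array medians were subtracted, and genes at or above the median in at least 1 array were kept (12632). Calls are a 2-fold rule of size and not a test. Alternatives were 4 other scalings, the mean of all probe sets, 1.5-fold, other filters and leaving out 1 array. The steps were tested on simulated data. Members and lists were chosen with earlier results of these data known. Genes named beyond the members were those of the lists apart from every other array or largest in L6b enrichment and the 3 most alike to a member, while *Chrm1*, *Gna11*, *Nedd4l*, *Calm2*, *Calm3* and the single markers were chosen after their values were seen. Python 3.11.15, numpy 2.4.6, pandas 2.3.3 and matplotlib 3.10.9 were used.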

Additional observations from a re-analysis of the deposited data

Results flagged for a closer look

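Opposite signs under the same contrast in 2 groups were seen for *Kcnq5* and *Kcnq3*. The difference between the groups was not tested, with 1 array per group. *Kcnq5* was 0.93 log2 higher in association than in callosal neurons of L2/3, while in L5 the difference of association minus callosal neurons was -0.45. *Kcnq3* differed between L5 and L2/3 by -1.24 in association neurons and by 0.08 in callosal neurons, where the second value is small. Groups of 1 array allow no search for samples far from the rest.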

How the results depend on the processing

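With 1 array per group and no detection values, small differences and dim signals limit every count. Of 110 alternative values, 99 kept the count within 1.5 times, or kept the L6b enrichment within 1.5-fold and on its side of 2-fold, and 0 called values reversed. Some of the 99 could not have moved. Each of the 6 genes had 1 probe set, so the mean of all probe sets left their values unchanged. The other filters only added *Hcn3* or dropped *Hcn4*, whose spans of 0.29 and 0.28 log2 are under 2-fold, so those counts were fixed in advance. Association L5 against callosal L5 gave 1 gene (*Hcn2*, higher) in place of 0 as deposited, with the 75th percentile subtracted and under quantile normalization, and 2 with the 1.5-fold rule. Association L5 against association L2/3 gave 4 in place of 2, adding *Hcn2* and *Pex5l* as higher, with the 75th percentile, quantile normalization and the 1.5-fold rule. That rule also gave 2 in place of 1 in association against callosal L2/3 (adding *Kcnq5*), 1 in place of 0 in callosal L5 against L2/3 (*Kcnq5*, lower), and 2 in place of 1 for L6b against each other array (adding *Pex5l*). The L6b enrichment of *Pex5l* was -0.99 without association L5, and over all alternatives it ran from -1.30 to -0.99, that of *Kcnq5* from -2.88 to -2.15, that of *Kcnq3* from -0.58 to -0.15 and that of *Hcn2* from -0.40 to -0.01. Among the counts within 1.5 times, association L6b against association L5 gave 2 in place of 3 with the 75th percentile subtracted (without *Hcn2*), and association L5 against association L2/3 gave 3 in place of 2 as deposited (adding *Hcn2*). No paired analysis was possible because the groups share fewer than 2 replicate numbers.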
